A study of Saccharomyces cerevisiae with 58 samples.

Results

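The 10 genes described here code for the subunits of RNA polymerase III (Pol III) that no other yeast RNA polymerase uses: RPO31, RET1, RPC82, RPC53, RPC37, RPC34, RPC31, RPC25, RPC17 and RPC11. They were chosen by name, and each had 1 probe set among the 5716 Saccharomyces cerevisiae probe sets that were tested. Levels came from 58 Affymetrix arrays of an rpb6 mutant (strain 212, 29 arrays) and its isogenic wild type (strain 211, 29 arrays), both grown in rich medium. Both strains were MATalpha and carried the ade2, lys2delta201, his3delta200 and ura3-52 alleles. In the mutant the chromosomal RPB6 gene was also replaced by HIS3, and a CEN/LEU2 plasmid supplied RPB6 with the Q100R substitution, so that the plasmid and both marker genes differed between the strains along with the substitution. The paper also reports slower growth of the mutant, and the part of growth rate in the strain differences was not tested. Each strain was followed in 0.3 mM H2O2 from 0 to 45 min, in 0.1% of the DNA-alkylating agent MMS between 0 and 180 min, and for 50 min after the transcription inhibitor phenanthroline, which was added either 7 min after 0.3 mM H2O2 or without it (the reference decay). Every course was 1 culture with 1 array per time point, so an error below is the scatter about a fitted curve and not the spread between repeated cultures.

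Pol III makes the tRNAs, the 5S rRNA and other short noncoding RNAs, and its output in yeast is cut back under many stresses through the repressor Maf1. RPO31 and RET1 code for the 2 largest subunits, which form the catalytic core. RPC82, RPC34 and RPC31 code for a heterotrimer that acts in initiation, RPC53 and RPC37 for a heterodimer that acts in termination and reinitiation, RPC25 and RPC17 for the stalk, which is the counterpart of Rpb7 and Rpb4 in Pol II, and RPC11 for the subunit that cleaves the nascent RNA. Rpb6, coded by RPO26, is itself a subunit of Pol I, Pol II and Pol III. The labelled RNA was primed with poly(T), so the arrays read the mRNAs that code for Pol III and not the RNAs that Pol III makes. In these bulk cultures, fewer cells with an mRNA and less of it per cell cannot be told apart. All 10 mRNAs were well measured, with mean levels 3.93 (RPC17) to 6.21 (RPC11) log2 units above the background of 5.11, which is the level below which 95% of the 1747 Schizosaccharomyces pombe probe sets on the same arrays lay.

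The H2O2, MMS and decay arrays had median levels of 9.89 to 9.94, 10.5 to 10.6 and 10.0 to 10.1 log2 units, which did not overlap between the sets. The sets were therefore taken as normalized apart, and levels were compared only within a set. All 4 MATalpha markers were high in both strains (medians 11.0 to 13.6 in the mutant and 11.5 to 13.8 in wild type), and the 5 MATa markers were lower (6.41 to 8.48 and 6.14 to 8.49). In untreated cells the 4 MATalpha markers were lower in the mutant in each of the 3 experiments. Their estimates ran between -1.41 and -0.15 log2 units, and none passed. The widest difference was that of MF(ALPHA)2 in the MMS experiment (-3.25). LEU2, the marker of the mutant's plasmid, was 0.53 log2 units higher in untreated mutant cells (limma, Benjamini-Hochberg adjusted p = 0.045). The HIS3 probe set read well above background in both strains (median 11.0 in the mutant and 11.1 in wild type over all arrays). In untreated cells HIS3 was higher in the mutant in each of the 3 experiments, by 0.54, 1.33 and 0.58 log2 units (estimate 0.82, limma adjusted p = 0.083).

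In untreated cells, none of the 10 mRNAs passed the test between the strains, although 8 of the 10 estimates were negative. The test used the 3 arrays per strain taken at 0 min, with the experiment as a block, and called 1.91% of all probe sets. Of the 10 members 2 had an unadjusted p under 0.05, as did 1472 of all 5716 probe sets, which is a larger share. The members' median difference, mutant minus wild type, was -0.15 log2 units, against -0.02 over all probe sets. Such differences are relative to the other mRNAs, because RMA normalization hides a shift that most mRNAs share. With spiked-in RNA as the scale, the paper reports generally lower mRNA levels in the unstressed mutant. RPC34 had the lowest estimate. Its levels were 10.2, 11.3 and 10.0 log2 units in the mutant, against 10.4, 11.6 and 10.6 in wild type, in the H2O2, MMS and decay experiments. The mutant was the lower strain in each experiment, with differences of -0.18, -0.29 and -0.57 log2 units. Their estimate was -0.35 ± 0.10 (SE, n = 3 each, limma adjusted p = 0.12). RPO31, RPC82 and RPC11 were also lower in the mutant in all 3 experiments (estimates -0.15, -0.22 and -0.23, adjusted p = 0.37, 0.20 and 0.16), and RET1 and RPC37 were lower in 1 of 3. The gene for Rpb6 itself, RPO26, had an estimate of -0.60 (adjusted p = 0.069).

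In H2O2, all 10 mRNAs fell in wild type cells, by 0.50 (RPC11) to 1.42 (RPC82) log2 units at the largest fitted change. In the mutant, 2 fell: RPC82, by 0.88 ± 0.20, and RPC37, by 0.43 ± 0.08 log2 units (SE of the fitted change, limma adjusted p = 0.040 and 0.023). For the background, the same test called 10.2% of all probe sets as fallen in the mutant and 27.7% in wild type. All 10 estimates were negative in both strains, and their medians were -0.37 in the mutant and -0.77 in wild type, against -0.06 and -0.07 over all probe sets. The time courses of both strains were fitted together with natural splines (3 degrees of freedom), and limma's moderated F test was taken over the spline terms. In the mutant no member passed when the 10, 25 or 45 min arrays were left out of both strains, and 7 passed when the strains were fitted alone. In that last fit RPO31, RET1 and RPC53 did not pass in wild type (adjusted p = 0.052, 0.068 and 0.077). The shares of all probe sets called in these other fits are not given here.

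RPC82, the large subunit of the initiation heterotrimer, moved most in both strains. After 5, 10, 15, 25, 35 and 45 min of H2O2 its log2 change from 0 min was -0.11, -0.70, -0.85, -0.75, -0.49 and -0.29 in the mutant, against -0.19, -1.11, -1.39, -1.13, -0.75 and -0.29 in wild type. The wild type value was the lower one at each time up to 35 min, and the strains met at 45 min. The stalk gene RPC25 had changes of 0.02, 0.00, -0.29, -0.38, -0.33 and -0.27 in the mutant, against 0.04, -0.35, -0.88, -0.93, -0.66 and -0.30 in wild type. Here too the strains lay close at 5 and 45 min and apart between. RPC31, another heterotrimer gene, stood at -0.08 and -0.23 at 15 and 25 min in the mutant and at -0.67 and -0.87 in wild type, which were the widest gaps between the strains at these times (0.59 and 0.64).

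Across the members the times of the lowest value were spread more widely in the mutant. There 6 of 10 were lowest at 25 min, 2 at 15 min, 1 at 10 min (RPC31) and 1 at 45 min (RPO31). The times of RPC31 and RPO31 were near ties on single arrays, with RPC31 at -0.30 at 10 min and -0.27 at 35 min. In wild type 7 of 10 were lowest at 15 min and 3 at 25 min. The median lowest value was 77.2% of the 0 min level in the mutant and 61.3% in wild type. By 45 min the medians were -0.17 in the mutant and -0.19 in wild type. RPO31 in the mutant read -0.20 at 25 min, -0.16 at 35 min and -0.21 at 45 min, its lowest value. In wild type it stood at -0.15 at 45 min. RPC37, of the termination heterodimer, was the lowest member in both strains, at -0.43 in the mutant and -0.38 in wild type. RPC17 was lower in the mutant at 35 min (-0.35 in the mutant and -0.18 in wild type).

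**Figure D1:**
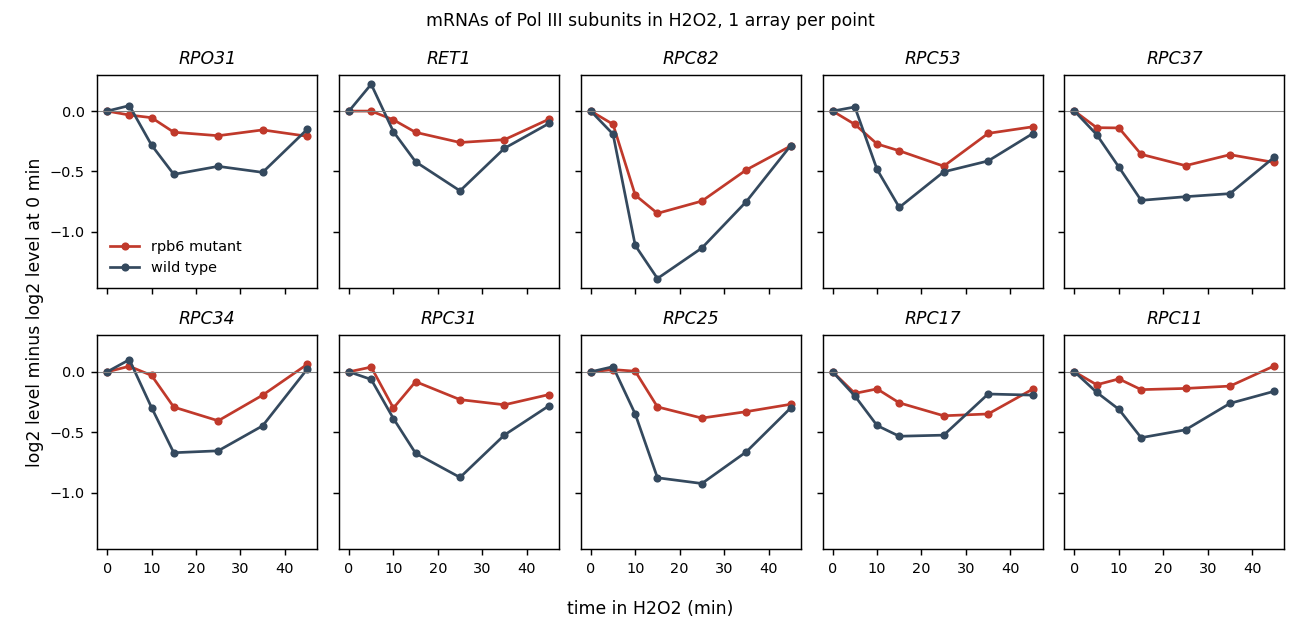
Change of each Pol III subunit mRNA in H2O2. The horizontal axis is the time in H2O2 (min) and the vertical axis the log2 level minus that at 0 min. Red is the rpb6 mutant, dark blue wild type, and each point is 1 array. At 15 and 25 min the red point lies above the blue one in all 10 panels, and RPC82 has the deepest trough in both strains (-0.85 in the mutant and -1.39 in wild type).

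Between the strains the H2O2 courses did not differ past the threshold for any member (0 of 10), where 1.24% of all probe sets passed. All 10 estimates were positive, which is a smaller decrease in the mutant, with a median of 0.40 log2 units against 0.03 over all probe sets. An unadjusted p under 0.05 was found for 3 of the 10 members and for 1113 of all 5716 probe sets. The lowest adjusted p among the members was 0.22 (RPC37, difference 0.39 ± 0.12 SE). On the arrays, the mutant's change lay above that of wild type for 5 of 10 members at 5 min, for all 10 at 10, 15 and 25 min, for 9 at 35 min and for 7 at 45 min. Over all probe sets the same share was 43.7% to 54.2%. The levels themselves gave the same order at 15 and 25 min (higher in the mutant for 10 of 10) and no common order at 0 min (5 of 10). RPC25 passed when the spline was put on log2(1 + time) (0.61, limma adjusted p = 0.034), and 1 member passed without the 5 min arrays.

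In MMS, all 10 mRNAs fell in both strains. The largest fitted change had a median of -1.25 log2 units in the mutant and -1.63 in wild type, while the median over all probe sets was 0.24 and 0.23. The background was high, since 38.3% of all probe sets fell in the mutant and 40.6% in wild type. The lowest measured values came at 80 min for all 10 mRNAs in the mutant, and at 40 min for 5 and 80 min for 5 in wild type. At that point the median mRNA was at 42.9% of its 0 min level in the mutant and 30.7% in wild type. The call of RPC53 in wild type turned to a rise with a spline of 2 degrees of freedom (0.58, limma adjusted p = 0.016). In the mutant RPC53 did not pass with that spline (adjusted p = 0.059), nor did RPC82 (-0.58, adjusted p = 0.12), which also did not pass on log2(1 + time) (adjusted p = 0.061).

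The members split by how far they fell and whether they returned. RPC31, RPC25 and RPO31 had the lowest fitted changes and were the lowest members at 180 min in both strains. RPC17, of the stalk, reached a measured value as low as that of RPO31 in wild type (-2.35 and -2.34) but stood at -0.93 at 180 min. RPC31 had log2 changes of -0.38, -2.09, -2.67, -2.32, -2.19, -1.82 and -1.75 at 20, 40, 80, 100, 120, 140 and 180 min in the mutant, against -1.04, -2.51, -2.69, -2.45, -2.13, -1.81 and -1.69 in wild type. RPC25 had -0.54, -2.11, -2.40, -1.96, -1.69, -1.59 and -1.44 in the mutant, against -1.38, -2.85, -2.61, -2.29, -2.12, -1.83 and -1.55 in wild type. From 80 min on the strains lay close for RPC31, whereas RPC25 was lower in wild type throughout. RPO31, the largest subunit, ended at -1.35 in the mutant and -1.44 in wild type. In contrast RPC53, of the termination heterodimer, had 0.05, -0.59, -0.64, -0.37, -0.07, 0.10 and 0.23 in the mutant, against -0.53, -1.12, -0.90, -0.60, -0.36, -0.16 and 0.10 in wild type. It was the only member above its 0 min level at 180 min, and it was so in both strains.

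Members of the same subcomplex differed in depth in MMS. In the catalytic core the largest fitted change was -2.15 ± 0.23 log2 units for RPO31 in the mutant and -2.41 ± 0.23 in wild type (SE), while for RET1 it was -1.09 ± 0.11 and -1.28 ± 0.11 (limma adjusted p at most 3.6e-05 for each). In the heterotrimer RPC31 had -2.81 ± 0.28 in the mutant and -2.87 ± 0.28 in wild type, RPC82 -1.12 ± 0.17 and -1.60 ± 0.18, and RPC34 -1.05 ± 0.12 and -1.60 ± 0.12. In the stalk RPC25 had -2.53 ± 0.28 in the mutant and -2.83 ± 0.28 in wild type, and RPC17 -1.72 ± 0.12 and -2.38 ± 0.12. The order of the 10 genes by lowest measured change was close in the mutant and in wild type (Spearman's rho 0.92 over 10 genes), and so was their order at 180 min (0.92). The order in MMS was unlike that in H2O2 (rho -0.19 in the mutant and 0.18 in wild type). RPC82 was the deepest in H2O2 but near the middle of the members in MMS, with a lowest value of -1.06 in the mutant and -1.71 in wild type against medians of -1.22 and -1.70.

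**Figure D2:**
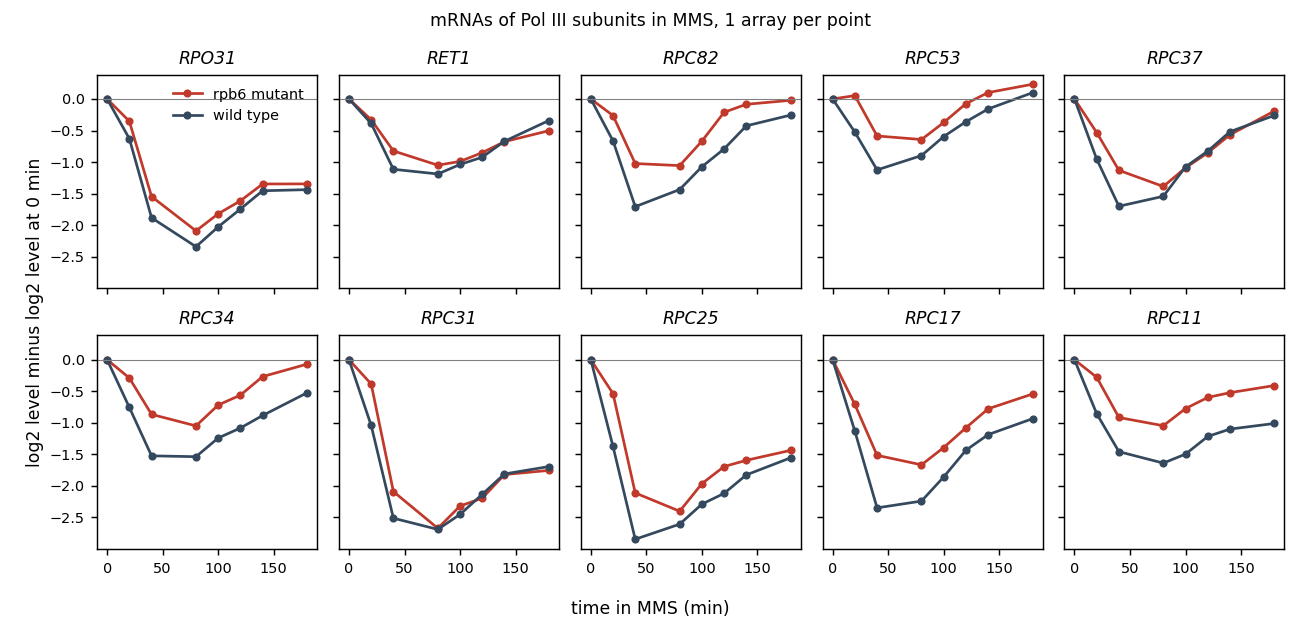
Change of each Pol III subunit mRNA in MMS, with the time in MMS (min) on the horizontal axis and the log2 level minus that at 0 min on the vertical axis. Red is the rpb6 mutant, dark blue wild type, 1 array per point, and RPO31, RPC31 and RPC25 stay 1.35 or more log2 units below 0 min at 180 min in both strains, whereas RPC53 ends above it (0.23 in the mutant and 0.10 in wild type).

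No member passed the test of the strain difference in MMS (0 of 10, where 2.75% of all probe sets passed). An unadjusted p under 0.05 was found for 1018 of all 5716 probe sets and for 3 of the 10 members. Of the estimates 9 were positive, with a median of 0.40 against 0.15 over all probe sets, and the lowest adjusted p was 0.085 for RPC37 (0.40 ± 0.14 SE). The gap was widest early. At 20 min the median change was -0.34 in the mutant and -0.81 in wild type, and at 40 min it was -1.08 and -1.70. The mutant's change lay above that of wild type for all 10 members at 20, 40 and 80 min, for 9 at 100 min, 8 at 120 min, 7 at 140 min and 8 at 180 min, where the median gap was 0.13. Over all probe sets 53.6% to 60.8% lay above, the highest share being at 140 min. The widest gaps were those of RPC25 at 20 min (0.84) and RPC17 at 40 min (0.83), both stalk genes. RPC11 kept a gap of 0.60 at 180 min.

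A sign of RNA quality also moved with the MMS courses. The signal of the ACT1 control probe sets at the 3′ end exceeded that at the 5′ end by 0.15 log2 units in the mutant and 0.14 in wild type at 0 min, and by a median of 1.44 in the mutant and 1.18 in wild type over the course. In the H2O2 courses this difference stayed between 0.36 and 0.44 in the mutant and between 0.35 and 0.51 in wild type. Its part in the MMS changes was not tested.

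At 7 min of H2O2, just before phenanthroline, the members were already lower than in untreated cells of the same set of arrays. The change, 1 array against 1 array and so without a test, was negative for all 10 in both strains. Its median was -0.15 log2 units in the mutant and -0.35 in wild type, against -0.06 and -0.07 over all probe sets. It was largest in wild type for the stalk gene RPC17 (-0.18 in the mutant and -0.51 in wild type), followed by RPC11 (-0.17 and -0.42). The Pol III repressor gene MAF1 stood at 0.06 in the mutant and 0.37 in wild type.

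After phenanthroline the mRNAs of the Pol III subunits were lost faster than the average mRNA in both strains. Phenanthroline blocks all 3 nuclear RNA polymerases, and the arrays of the decay courses were brought to a common scale, so a log2 change here is relative to the average mRNA of the same array. At 50 min the members' median change was -0.71 with H2O2 and -1.34 in the reference in the mutant, against -1.50 and -1.81 in wild type. On the authors' rescaled values, which give every course nearly the same overall half-life (25.7 to 25.8 min), the members' median half-life was 19.1 min with H2O2 and 17.7 min in the reference in the mutant. In wild type it was 13.8 and 12.6 min. Over all probe sets the medians were 25.4, 25.5, 26.1 and 25.8 min in the same order. R-square of the exponential fits of the members was 0.949 to 0.999.

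In the reference courses 6 of 10 members were lost more slowly in the mutant (RET1, RPC53, RPC34, RPC25, RPC17 and RPC11), where 17.4% of all probe sets passed in that direction and 36.6% in either. With H2O2 7 of 10 were, the same 6 and RPC31, where 18.4% passed in that direction and 41.4% in either. No member passed in the other direction. The median difference in slope, mutant minus wild type, was 0.0206 log2 units per min with H2O2 and 0.0159 in the reference, against -0.00212 and -0.00122 over all probe sets. The test was limma's, on 1 line per course over the 28 decay arrays, and the 2 comparisons use different arrays but share 1 estimate of the scatter.

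RPC34, of the heterotrimer, had the lowest adjusted p. At 5, 10, 20, 30, 40 and 50 min its log2 change in the reference was -0.12, -0.10, -0.08, -0.32, -0.48 and -0.64 in the mutant, against -0.17, -0.22, -0.56, -1.07, -1.43 and -1.70 in wild type. With H2O2 it was -0.20, -0.15, -0.13, -0.23, -0.17 and -0.34 in the mutant, against -0.25, -0.24, -0.44, -0.87, -1.29 and -1.41 in wild type. All 4 courses ended below their 0 min level, and from 5 min on the mutant's change was the higher one in each condition. The slopes differed by 0.0249 ± 0.0026 log2 units per min with H2O2 and by 0.0234 ± 0.0026 in the reference (SE, limma adjusted p = 9e-07 and 9.6e-07).

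RET1, the second-largest subunit, had the widest difference in slope. Its reference changes were 0.03, 0.09, 0.06, -0.05, -0.56 and -0.80 in the mutant, against 0.22, -0.01, -0.29, -1.08, -1.73 and -1.80 in wild type. RET1 stayed within 0.22 log2 units of its 0 min level for the first 10 min in both strains, and the strains parted from 20 min on. The slopes differed by 0.0258 ± 0.0052 log2 units per min with H2O2 and by 0.0278 ± 0.0052 in the reference (adjusted p = 0.00048 and 0.00023). For its partner in the catalytic core, RPO31, the slopes did not pass, with 0.0080 (95% interval -0.0064 to 0.0224) with H2O2 and -0.0031 (-0.0175 to 0.0113) in the reference.

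Of the other heterotrimer genes, RPC82 differed by 0.0110 ± 0.0046 with H2O2 and 0.0071 ± 0.0046 in the reference (adjusted p = 0.058 and 0.24), and RPC31 by 0.0197 ± 0.0061 and 0.0080 ± 0.0061 (0.013 and 0.33). In the termination heterodimer RPC53 differed by 0.0219 ± 0.0041 with H2O2 and 0.0206 ± 0.0041 in the reference (0.00025 and 0.00044), whereas RPC37 did not pass (0.19 and 0.15). Both stalk genes passed, with RPC25 at 0.0226 and 0.0206 (0.00016 and 0.00038) and RPC17 at 0.0215 and 0.0176 (0.0060 and 0.024). RPC11 differed by 0.0125 with H2O2 and 0.0143 in the reference (0.0079 and 0.0033).

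The calls depended on the stretch of time that was fitted. Over the first 30 min, RPC82, RPC37 and RPC31 passed in the reference as well (0.0243, 0.0204 and 0.0326 log2 units per min, limma adjusted p = 0.013, 0.045 and 0.0078), which made 9 of 10. With H2O2 over the same time RPO31 and RPC82 passed (0.0332 and 0.0221, adjusted p = 0.038 and 0.033), while RPC17 and RPC11 did not (0.0236 and 0.0153, adjusted p = 0.11 and 0.071), which left 7 of 10. RPO31 in the reference had 0.0234 over these 30 min (adjusted p = 0.10), against -0.0031 over the whole course. The reference fit holds the mutant's arrays of 10 and 20 min, where 9 of 10 members were higher at 20 than at 10 min. The shares of all probe sets called over these 30 min are not given here.

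**Figure D3:**
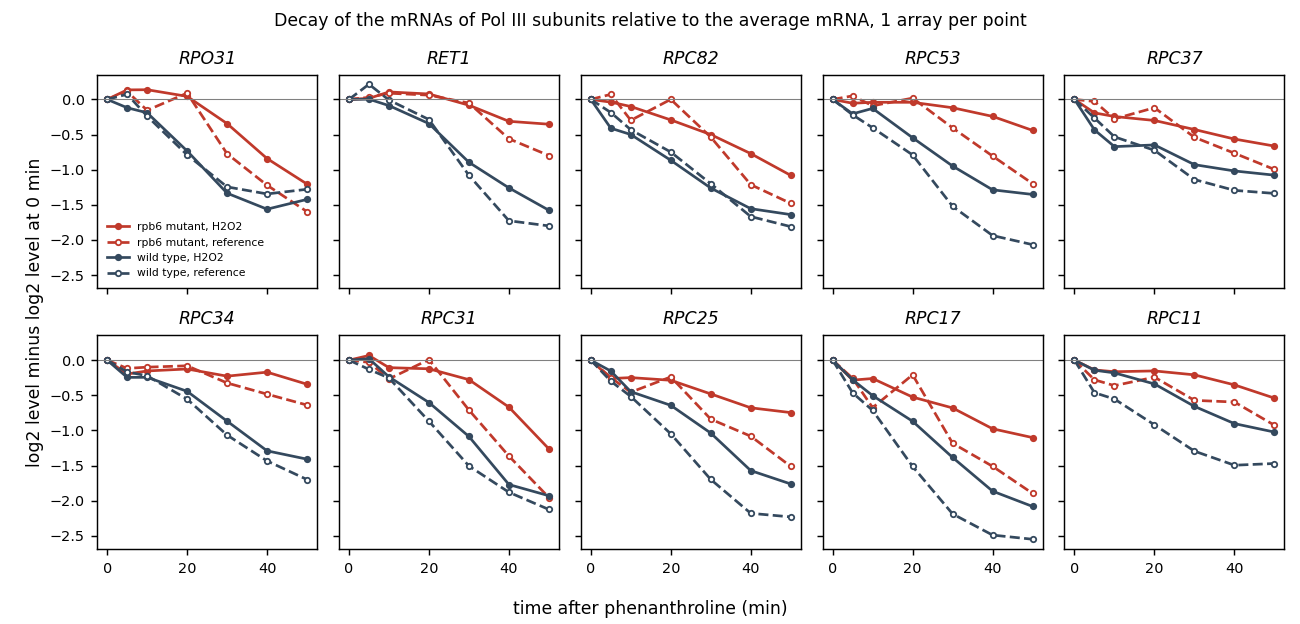
Loss of each Pol III subunit mRNA after phenanthroline. The horizontal axis is the time after phenanthroline (min) and the vertical axis the log2 level minus that at 0 min, relative to the average mRNA. Red is the rpb6 mutant, dark blue wild type, filled points with a solid line are courses with H2O2, and open points with a dashed line are reference courses (1 array per point). At 50 min the red curves lie above the blue curves of the same condition in all panels except the reference courses of RPO31 (-1.60 in the mutant and -1.28 in wild type).

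**Figure D4:**
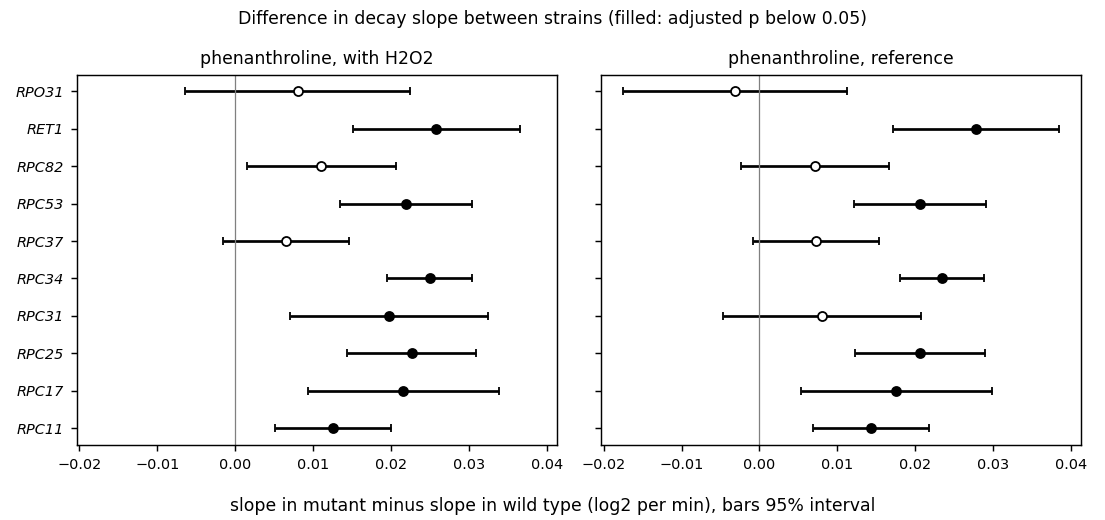
Difference in decay slope between the strains for each Pol III subunit mRNA. The horizontal axis is the slope in the mutant minus the slope in wild type (log2 units per min), with H2O2 on the left and in the reference on the right. Bars are 95% intervals and filled points passed at an adjusted p below 0.05. Filled points are 7 of 10 with H2O2 and 6 of 10 in the reference, all right of 0.

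Half-lives gave the same order of the strains. All 10 were longer in the mutant with H2O2, by 1.26 to 1.51 times, and all 10 in the reference, by 1.27 to 1.59 times. Over all probe sets the median with H2O2 was 25.4 min in the mutant and 26.1 min in wild type. In the reference it was 25.5 and 25.8 min. For each member the range over fits without 1 time point did not overlap between the strains, in either condition. How many of all probe sets did the same was not counted. The members' half-lives come from the same arrays as their slopes and are no separate evidence. The shortest half-lives were those of RPC17, at 16.1 min with H2O2 and 14.2 min in the reference in the mutant, against 11.8 and 8.90 min in wild type. The longest in the reference were those of RET1, at 21.7 min in the mutant and 15.0 min in wild type. An exception came with a line through the log2 values in place of the exponential, by which the reference half-life of RPO31 was 13.6 min in the mutant and 14.2 min in wild type. The mutant's reference arrays of 10 and 20 min did not follow the order of time, since 9 of 10 members were higher at 20 than at 10 min there (RPC17 at -0.68 and -0.21), against none in the wild type reference. Without these 2 arrays 6 of 10 members passed the reference comparison of the strains, and 8 of 10 that with H2O2. The shares of all probe sets that passed without them are not given here.

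H2O2 slowed the loss of 1 member past the threshold in each strain, and it was the same gene, RPC53. In the mutant its log2 changes with H2O2 were -0.05, -0.04, -0.04, -0.12, -0.24 and -0.44 at 5, 10, 20, 30, 40 and 50 min, against 0.05, -0.09, 0.02, -0.41, -0.81 and -1.20 in the reference. In wild type they were -0.21, -0.13, -0.55, -0.95, -1.29 and -1.35 with H2O2, against -0.22, -0.40, -0.79, -1.52, -1.94 and -2.07 in the reference. Within each strain the course with H2O2 was the higher one from 30 min on. The slope rose by 0.0166 ± 0.0041 log2 units per min in the mutant and by 0.0153 ± 0.0041 in wild type (SE, limma adjusted p = 0.032 and 0.017), and the half-life of RPC53 was 22.7 min with H2O2 and 18.9 min in the reference in the mutant, against 15.0 and 12.1 min in wild type. The background was 1.33% of all probe sets in this direction in the mutant (2.73% in either) and 5.35% in wild type (10.3% in either).

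The call rested on the full set of arrays. With 1 time point left out of all 4 courses, 0 to 3 members passed in either strain, and over the first 30 min none did (RPC53 adjusted p = 1 in the mutant and 0.13 in wild type). The estimates of the other members were mostly positive too, for 10 of 10 members in the mutant and 9 of 10 in wild type, with medians of 0.0088 and 0.0084 log2 units per min against -0.00030 and 0.00040 over all probe sets. RPC25 came next (0.0140 ± 0.0040 in the mutant and 0.0119 ± 0.0040 in wild type, adjusted p = 0.058 and 0.061), and it passed in both strains without the mutant's reference arrays of 10 and 20 min (0.022 and 0.021). By half-lives, 10 of 10 members were longer with H2O2 in the mutant (1.03 to 1.20 times) and 8 of 10 in wild type (0.961 to 1.41 times). The ranges over fits without 1 time point were apart for 6 of 10 members in the mutant and 5 of 10 in wild type. These counts of half-lives were not made over all probe sets, so they have no background. The widest ratio in wild type was that of RPC11, with 16.9 min with H2O2 and 12.0 min in the reference. No member passed the test of whether the effect of H2O2 on the slope differed between the strains (0 of 10, where 0.647% of all probe sets passed), and the estimates ran between -0.0020 and 0.0117 log2 units per min.

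Across all 58 arrays, centred within each course, the 10 profiles ran together. Each member's Pearson correlation with the mean of the other 9 was 0.909 (RPC53) to 0.972 (RPC17), which describes 8 courses whose points share cultures and is no independent evidence. It was lowest for RPC53 in the MMS courses (0.793 over 16 arrays) and highest for RPC25 in the decay courses (0.990 over 28 arrays). The 5 other genes whose profiles were most like the members' mean were TRM11 (r = 0.993), which codes for the catalytic subunit of a tRNA methyltransferase, and PNO1, CGR1, IMP3 and UTP25 (0.992, 0.992, 0.992 and 0.989), which code for ribosome assembly factors. For MAF1 the correlation was -0.70.

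The other genes of the Pol III system were counted by list. In the mutant 10.2% of all probe sets fell in H2O2 and 38.3% in MMS, against 27.7% and 40.6% in wild type, and 18.4% were lost more slowly in the mutant with H2O2 and 17.4% in the reference. Of the 7 subunits that Pol III shares with other polymerases, all 7 fell in MMS in both strains, and 1 (RPC40) fell in H2O2 in the mutant against 6 in wild type, with RPO26 the one that did not pass (-0.18, adjusted p = 0.14). In decay, 5 of the 7 were lost more slowly in the mutant with H2O2 and 6 in the reference. RPC19, which with RPC40 is shared by Pol I and Pol III, had a profile close to that of the members (r = 0.989). Of the 7 subunits specific to Pol I, 7 fell in MMS in both strains, 1 in H2O2 in the mutant and 7 in wild type, and 5 were lost more slowly in the mutant in each condition. Their median in MMS was -2.80 in the mutant and -3.26 in wild type. Of the 7 listed subunits specific to Pol II, none fell in H2O2 in the mutant and 2 did in wild type, a share near that of all probe sets, and in MMS 4 fell and 2 rose in the mutant against 6 and 1 in wild type. RPB4, the Pol II counterpart of RPC17, rose by 0.68 in the mutant and 0.70 in wild type in MMS, while RPB7, the counterpart of RPC25, fell by 0.62 and 0.59 (limma adjusted p at most 0.0005 for each).

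The genes for the initiation factors of Pol III did not share the members' direction in MMS. Of the 10 genes for TFIIIA, TFIIIB and TFIIIC, 7 rose and 1 fell in the mutant, and 6 rose and 2 fell in wild type, where 44.8% and 46% of all probe sets rose, so that the share in wild type was not far from that of all probe sets. TFC3, TFC6, TFC8, TFC7 and TFC1, which code for subunits of TFIIIC, the factor that binds the internal promoter, and BRF1, a subunit of TFIIIB, rose in both strains. The rise was largest for TFC3, at 1.45 log2 units in the mutant and 1.52 in wild type (adjusted p = 9.7e-08 and 4.2e-08), followed by TFC6 (1.37 and 1.31). BDP1, of TFIIIB, rose in the mutant (0.88, adjusted p = 0.0069) and had an estimate of 0.53 in wild type (0.054). SPT15, which codes for the TATA-binding protein used by all 3 polymerases, fell in both (changes of -0.66 and -0.77 log2 units), and PZF1, which codes for TFIIIA, had an estimate of -0.84 in the mutant (adjusted p = 0.091) and fell in wild type (-1.30, adjusted p = 0.0037).

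In H2O2, SPT15 and TFC3 rose in the mutant (0.57 and 0.31) and in wild type (0.32 and 0.44), TFC7 rose in wild type (0.53, adjusted p = 0.00064), and PZF1 fell there (-0.69, adjusted p = 0.0028). All probe sets that rose were 12.5% in the mutant and 28.5% in wild type. MAF1 had an estimate of 0.25 in the mutant (adjusted p = 0.11) and rose in wild type by 0.51 (adjusted p = 0.0029). The test of the strain difference did not pass (-0.28, adjusted p = 0.28). In MMS the change of MAF1 was -0.05 in the mutant (adjusted p = 0.98) and it fell in wild type (-0.25, adjusted p = 0.0073). RBS1 and BUD27, which act in the assembly of the enzyme, both fell in wild type in H2O2 (-0.47 and -0.93) and in both strains in MMS. In decay, none of the 10 initiation factor genes was lost more slowly in the mutant, and 2 with H2O2 (TFC6 and TFC7) and 3 in the reference (these 2 and TFC4) were lost faster, where 23.1% and 19.1% of all probe sets were. BUD27 was lost more slowly in the mutant in both conditions (0.0222 and 0.0232 log2 units per min, adjusted p = 0.0020 and 0.0015).

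**Figure D5:**
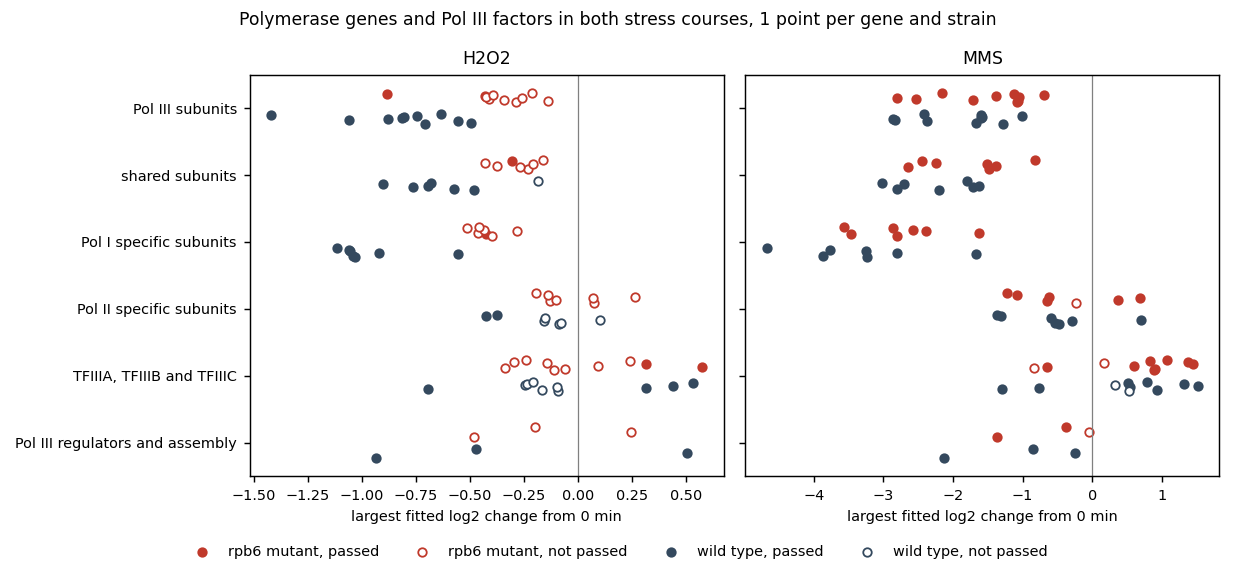
Largest fitted change from 0 min of each gene in H2O2 (left) and MMS (right), by group of genes down the page. The horizontal axis is in log2 units, red is the rpb6 mutant, dark blue wild type, and filled points passed at an adjusted p below 0.05. In MMS every gene of the Pol III, shared and Pol I groups lies left of 0 in both strains, whereas 8 of the 10 genes for TFIIIA, TFIIIB and TFIIIC lie right of it in each strain.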

How the data were processed

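The authors made the deposited log2 levels from the scanned Yeast Genome 2.0 arrays with RMA. The 14 H2O2, 16 MMS and 28 decay arrays were taken as normalized apart, from their differing median levels. For the decay courses the authors also deposited a linear ratio to 0 min, in which each array was rescaled by 1 factor so that all courses decay at the same overall rate; changes in total mRNA are therefore not measured. The deposited log2 changes from 0 min equalled differences of the levels (within 0.00036) and were not used. Of the 10928 probe sets, the 5716 of S. cerevisiae in the authors' tables were tested (5498 with 1 gene symbol and 218 with none listed).

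limma 3.58.1 (R 4.3.3) was used with Benjamini-Hochberg adjustment over all 5716 probe sets and a threshold of 0.05. Untreated strains were compared with the experiment as a block, since 0 min arrays of the same experiment deviated together (r = 0.661, 0.818 and 0.737). Stress courses were fitted with a natural spline (3 degrees of freedom), decay courses with a line per course, and half-lives with an exponential with a free start (scipy 1.17.1). The report draws on 12 comparisons, each adjusted on its own. All members were described, and genes of the other lists were named where they passed or were RPO26, MAF1, RPB4 or RPB7. The members and lists were chosen with earlier results of these data known. Arrays give no counts, and their number limits the precision. The tests were tested on simulated data. Alternatives were other splines, time scales, centring, a filter at background, a variance trend and omitted arrays.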

Additional observations from a re-analysis of the deposited data

How the results depend on the processing

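With no replicate block, 0 of 10 members passed between the untreated strains, as with it, and 1 probe set in all passed against 109. For the mutant in H2O2, 4 members passed with a spline of 4 degrees of freedom, 5 on log2(1 + time) and 7 with each strain fitted alone, against 2. Here and below, the share of all probe sets called under each setting is not given. A higher count of members may therefore go with more calls over all probe sets. The strain difference in H2O2 had 1 member on log2(1 + time). Slower loss with H2O2 passed for 0 members in either strain over 0 to 30 min only, and for 2 in each without the mutant's reference arrays of 10 and 20 min, against 1. Over 0 to 30 min the strain difference in loss passed for 7 members with H2O2 and for 9 in the reference. These reference fits hold the mutant's arrays of 10 and 20 min, which did not follow the order of time. With 1 time point left out, members that passed numbered 0 to 3 in the mutant and 8 to 10 in wild type in H2O2, 0 to 1 for their difference, 10 in MMS in each strain and 0 for their difference, 0 to 3 for slower loss with H2O2 in each strain, 6 to 9 for the strain difference in loss with H2O2, 5 to 8 in the reference, and 0 for the change of decay. Without 1 experiment, 0 members passed between the untreated strains.

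For single members, the largest fitted change of RPC53 in wild type in MMS turned to 0.58 with a spline of 2 degrees of freedom. Without 1 time point it ranged between -1.10 and 0.74, and that of RPC37 between -1.71 and 0.82, both positive only without the 0 min arrays, in which case changes are counted from the 20 min arrays. In the mutant in MMS, RPC82 did not pass with a spline of 2 degrees of freedom (adjusted p = 0.12) or on log2(1 + time) (0.061), nor did RPC53 with 2 degrees of freedom (0.059). Centring the arrays, the filter and the variance trend changed no count by over 1.5 times. With 1 culture per course, differences between cultures and between strains cannot be told apart.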
